A study of Mus musculus with 6 samples.

Results

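A 1-colour Agilent mouse array carried 16166 targets of 60 bases that were named for a genomic interval and a strand rather than for a gene, such as chr8:10886200-10905925 with the ending F (forward) or R (reverse). They were chosen by that form of name among 55681 targets in all, and 15 targets at 1 locus on chromosome 3 were left out. The 16166 targets made up 29.0% of the array and covered 4603 intervals with a strand name at 3537 genomic intervals. Of these intervals, 1250 had targets for F only, 1221 for R only and 1066 for both. An interval with its strand name held 1 to 10 targets, with a median of 3, and the median interval was 10699 bases long.

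Intergenic transcription gives rise to long non-coding RNAs, which are transcribed by RNA polymerase II, often spliced and polyadenylated, and carry no long open reading frame. Many are present at low abundance and are restricted to particular tissues or cell states. A few, such as Malat1 and Neat1, accumulate in the nucleus of most cells, where Neat1 builds the paraspeckle. Because most such transcripts have no gene name, arrays of this kind address them by strand and position alone.

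The RNA came from whole liver of C57BL6/J mice, a standard inbred strain. A group of 3 mice received 250 mg/kg of the compound labelled CBZ by mouth, a group of 3 received DMSO, the solvent control, and all were killed 2 hours later, with 1 array per mouse. The labels give no age and do not expand the name CBZ. Whole liver mixes cell types, so fewer cells of a type and less RNA per cell cannot be told apart in any value below. Each mouse was measured once, so p-values rest on the spread between 3 mice per group, array handling included. The limma model used below also draws each target's variance towards that of all targets tested. Its p-values and SEs thus do not rest on the spread of that target alone. The number of arrays limits the precision.

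The labelled tissue was checked on marker genes. All 7 of 7 hepatocyte markers on the array were well above background on all 6 arrays, and none of 4 markers of exocrine pancreas was. Between 42.6% and 45.8% of spots were well above background on each array and no spot was saturated. The 3 DMSO arrays and CBZ 1 lay in one row of the slide, and CBZ 2 and CBZ 3 in the other. Levels below are log2 of the processed signal minus the 75th percentile of the array, so that 0 is the 75th percentile of all spots. "Detected" means flagged well above background by the scanner software.

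The following sequences, read from the array design, show what the results turn on. Positions are on mouse build mm9, each sequence is written 5′ to 3′ in the sense of the transcript it detects, and capitals mark a stretch shared with another probe of the array. The first set holds 6 of the targets with the smallest p between CBZ and DMSO mice and, last, the brightest target of a locus on chromosome 16 whose groups overlap, all described further on. None of them shares 20 or more bases with another gene's probe.
chr8:10902174-10902233, forward: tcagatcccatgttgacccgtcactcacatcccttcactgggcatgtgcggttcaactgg
chr8:10899986-10900045, reverse: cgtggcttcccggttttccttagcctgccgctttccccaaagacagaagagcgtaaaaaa
chr6:133054990-133055049, reverse: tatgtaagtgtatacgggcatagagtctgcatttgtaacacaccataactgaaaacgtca
chr4:123361151-123361210, reverse: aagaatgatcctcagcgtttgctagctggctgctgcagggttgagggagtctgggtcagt
chr14:62281564-62281623, reverse: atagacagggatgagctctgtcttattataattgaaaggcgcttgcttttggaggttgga
chr14:62294981-62295040, reverse: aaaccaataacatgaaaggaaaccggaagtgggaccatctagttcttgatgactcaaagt
chr16:23995226-23995285, forward: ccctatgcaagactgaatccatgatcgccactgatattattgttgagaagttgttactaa

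The next set holds bright targets. The target on chromosome 17 is shown because all 60 of its bases are also those of the array's probe for Rn45s, the precursor of ribosomal RNA. The target on chromosome 14 has a GC content of 83.3%, and the one on chromosome 19 lies 6358 bases from the array's Malat1 probe on the same strand.
chr1:193897856-193897915, reverse: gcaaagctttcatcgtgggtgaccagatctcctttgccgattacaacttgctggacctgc
chr14:78936616-78936675, forward: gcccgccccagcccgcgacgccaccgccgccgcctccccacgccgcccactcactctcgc
chr19:5802130-5802189, reverse: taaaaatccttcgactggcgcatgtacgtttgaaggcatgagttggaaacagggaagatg
chr17:39985407-39985466, forward: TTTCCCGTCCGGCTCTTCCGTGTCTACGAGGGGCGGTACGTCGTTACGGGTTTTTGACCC

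Some targets share a stretch with the array's probe for an abundant messenger RNA. How far they match that messenger RNA beyond the probe was not tested. The following stretches are those that targets in chr17:48068261-48087905 (F), chr7:108209996-108216032 (R) and chrX:98658045-98677545 (F) share with the array's probes for a cytokine gene, a ribosomal protein gene and a gene of the anaphase-promoting complex that lie elsewhere in the genome.
shared with Mif: TAGCGATGCCCACCTTCCAGCC
shared with Rps29: TAAGTTGGACTAAGCGACCTTGAATGGA
shared with Anapc13: CTGATGCCGGGCTCCTTCCCA

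The first question was how many of the intergenic targets gave signal in liver. On all 3 DMSO arrays 3318 of 16166 targets were detected, 20.5%, against 38.4% of all targets of the array and 51.8% of 28870 targets of named protein-coding genes. On all 3 CBZ arrays 3269 were detected, 20.2%, against 38.1% of all targets and 51.4% of the protein-coding ones. The 1950 targets of other non-coding RNA genes, which have a gene name, gave 18.6% in DMSO and 18.7% in CBZ. Without regard to base composition, intergenic targets were thus detected about as often as named non-coding genes. Among targets of up to 45% GC they were detected less often, as given below. Protein-coding genes were detected far more often.

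Both strand names gave nearly the same share. In DMSO mice 20.6% of 8162 F targets and 20.5% of 8004 R targets were detected on all 3 arrays, and in CBZ mice 20.3% and 20.1%. On all 6 arrays 2927 intergenic targets, 18.1%, were detected. Another 10397, 64.3%, were detected on none, and 2842, 17.6%, on some arrays only. Just 19 targets were detected on all DMSO arrays and no CBZ array, and 18 the other way round.

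**Figure D1:**
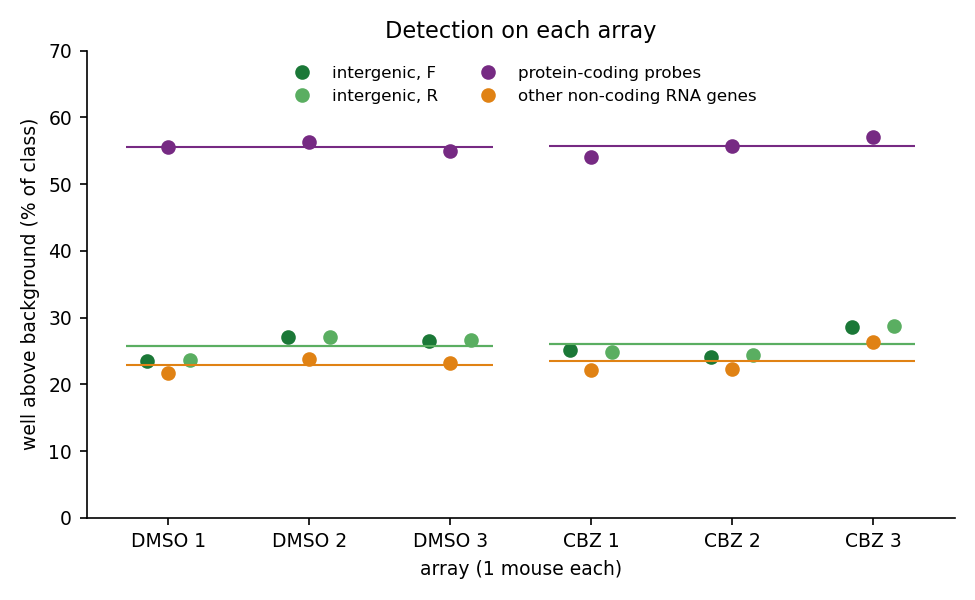
Percent of each class of targets that was well above background on each of the 6 arrays (points), with group means as lines. Both strand names lie between 23.6% and 28.7%, named non-coding RNA genes between 21.6% and 26.4% and protein-coding genes between 54.1% and 57.1%.

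Array by array, 23.6%, 27.1% and 26.6% of the intergenic targets were detected in DMSO mice 1, 2 and 3, and 25.03%, 24.3% and 28.7% in CBZ mice 1, 2 and 3. The highest share was in a CBZ mouse and the lowest in a DMSO mouse, and the groups overlapped. The mean was 25.8% ± 1.88 (SD, n = 3) in DMSO and 26.0% ± 2.35 (SD, n = 3) in CBZ, with p = 1 in a two-sided exact permutation test, whose smallest possible p is 0.1.

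Detection was more frequent among GC-rich targets, though not in every step, since 33.8% of intergenic targets with over 45% and up to 50% GC were detected on all 6 arrays and 30.5% of those in the next class. Of 2600 intergenic targets with at most 35% GC, 7.69% were detected on all 6 arrays, and of 338 with over 60% GC, 60.1% were. Targets of protein-coding genes covered a smaller range, from 42.1% to 67.0% over the same classes. Median GC was 45% for intergenic and 41.7% for protein-coding targets. Targets of named non-coding RNA genes with at most 35% GC were detected in 9.20% of cases, more often than intergenic ones. In the next classes, up to 50% GC, the shares were 15.1% against 11.8%, 20.9% against 15.4% and 34.3% against 33.8%. With over 50% and up to 55% GC it was 26.8% against 30.5%. The classes above held only 5 and 4 named non-coding targets.

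**Figure D2:**
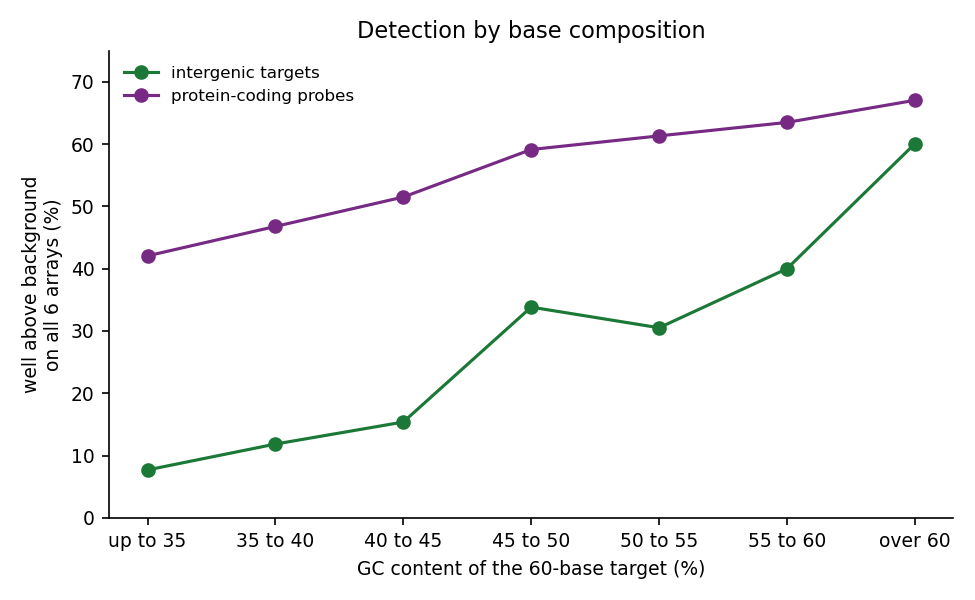
Percent of targets well above background on all 6 arrays (vertical axis) by GC content of the 60-base target (horizontal axis), for intergenic and protein-coding targets. The intergenic line climbs from 7.69% to 60.1%, below the protein-coding line in every class.

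Detection varied less with the distance to the 3′ end of the interval. Of targets within 200 bases of that end 15.6% were detected on all 6 arrays, and of those 10 kb or more from it 19.9%. Targets of intervals of up to 1 kb were detected in 13.6% of cases, and those of intervals over 10 kb and up to 50 kb in 19.4%. By chromosome the share ran from 13.3% on the X to 25.5% on chromosome 19. Chromosomes 14, with 23.8%, and 17, with 23.2%, followed chromosome 19.

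The intergenic label was checked against the array's own probes for named genes. In 229 of the 4603 intervals with a strand name, 4.98%, a probe of a protein-coding gene on the same strand lay inside the interval. In 732 a same-strand probe lay outside the interval but within 10 kb. For 3039, or 66.0%, there was none within 10 kb on either strand. These classes rest on probe positions, since no gene annotation of the build was used.

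Detection differed between those classes. Targets in intervals with a same-strand coding probe inside were detected on all 6 arrays in 32.7% of cases. With an opposite-strand probe inside and no same-strand one within 10 kb it was 15.2%. Intervals with no coding probe within 10 kb gave 17.2%. For 10167 targets away from any coding probe, detection was thus close to the 18.1% of the whole class.

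The second question was how bright the detected targets were. Levels and tests used targets detected throughout at least 1 of the groups, of which 3658 were intergenic and 15404 protein-coding. The median level of the kept intergenic targets was -0.94, against 1.30 for protein-coding and -0.81 for named non-coding RNA targets. Of the kept intergenic targets 466, or 12.7%, exceeded the protein-coding median, and 44, or 1.20%, exceeded its 90th percentile. Brightness also depends on base sequence, so these values describe classes and not amounts of RNA of single transcripts.

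F and R targets had nearly the same median level, -0.93 for 1849 kept F targets and -0.95 for 1809 kept R targets. The brightest target of each of 2141 intervals with a strand name had a median of -0.83, and the brightest probe of each of 11781 protein-coding genes a median of 1.61. Across arrays the median of the kept intergenic targets was -1.12, -0.91 and -0.72 in DMSO mice 1, 2 and 3 and -0.75, -1.09 and -0.81 in CBZ mice 1, 2 and 3. DMSO 1 and CBZ 2 were the dimmest arrays for this class, and the groups overlapped.

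**Figure D3:**
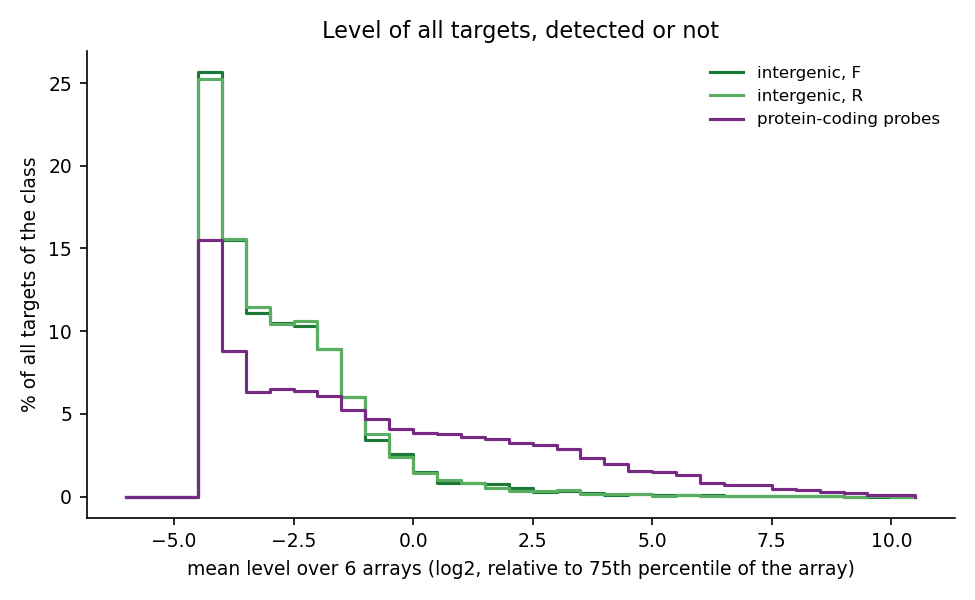
Distribution of the mean level over 6 arrays for all targets of a class, detected or not, in steps of 0.5 on the log2 scale. F and R lines lie on each other and fall away above a level of 0, where the protein-coding line carries on.

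The brightest interval, chr1:193875525-193978800 on R, read 10.22, 10.14 and 10.15 in DMSO mice and 9.27, 9.96 and 9.79 in CBZ mice. Its 3 CBZ values lay below the DMSO values, with a log2 difference of -0.50 ± 0.18 (SE, n = 3 and 3) and an adjusted p of 0.431 in limma. A probe of a protein-coding gene lay inside the interval on the same strand. The named probe nearest to the target was that of Rcor3, 26720 bases away on the same strand. Which RNA gave the signal was not tested. This target is the only one of the 2 in its interval that was detected on all 6 arrays. The next, in chr17:17481706-17482457 on R, had a mean level of 8.92 and lay 124 bases from the array's probe for Oaz1, which encodes ornithine decarboxylase antizyme. All 3 targets of that interval were detected on all 6 arrays.

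The GC-rich target in chr14:78924115-78938125 on F had a mean level of 8.69, and only 2 of the 7 F targets of its interval were detected on all 6 arrays. A target in chr14:22267795-22319045 on F had a mean level of 8.25 and no position of its own in the design. The named probe nearest to that interval was that of Adk, 101 bases from it on the same strand. A target in chr11:22681800-22707775 on R had a mean level of 8.02, and 52 of its bases were those of another array probe that has no gene name here. Part of that stretch also lies in the array's probe for Rps16, a ribosomal protein gene, which had a level of 8.22. How much of the signal came from that messenger RNA was not tested.

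Several bright targets belonged to known RNAs. At the Malat1 locus, a nuclear long non-coding RNA, the target in chr19:5801802-5802597 on R read 8.65, 8.62 and 8.87 in DMSO mice and 8.46, 8.62 and 8.43 in CBZ mice. Its other targets had mean levels of 6.39 and 4.42, and 3 targets of chr19:5798135-5800557 had 4.71, 3.97 and 3.83. The array's own Malat1 probe had a level of 0.65 and a log2 difference of 0.55 ± 0.36 (SE). All 6 of these intergenic targets were lower in CBZ mice, by -0.13 to -0.32, and none had an unadjusted p under 0.05. A further target, in chr19:5771425-5848475 on R, overlapped the Malat1 probe and had a level of 0.11 and a difference of 0.31 ± 0.31 (SE). Levels at this locus thus differed widely between targets, and targets at the probe and away from it had differences of opposite sign.

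At the Rn45s locus, targets in chr17:39960567-39992817 and chr17:39983902-39985688, both on F, had mean levels of 8.14 and 8.08. The array lists these as non-coding intervals, while the Rn45s probe lies 90 and 103 bases from them. The log2 differences were 0.05 ± 0.18 and 0.04 ± 0.19 (SE), with adjusted p of 0.985 and 0.986 in limma. Both differences changed sign under 7 of 16 other settings.

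An exact stretch of 20 or more bases in the same sense as another array probe was found in 281 intergenic targets, and 34.9% of them were detected on all 6 arrays. Where that probe belonged to a protein-coding gene and did not overlap the target's position in the design, 29 of 50 targets, 58.0%, were detected. Targets without a position of their own counted as not overlapping, so some of these 50 may lie at the gene itself. Of the 15697 targets with no shared stretch in either sense, 17.7% were detected. Among the 20 brightest intergenic targets 6 shared a stretch, among the 50 brightest 14, and among the 100 brightest 21. The target that shares 22 bases with Mif had a level of 7.66, against 8.09 for the Mif probe. The one that shares 28 bases with Rps29 had 6.91 against 7.63, and the one that shares 21 with Anapc13 had 6.77 against 7.09. How much of their signal came from those messenger RNAs was not tested.

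Identical targets gave a measure of technical spread. In 75 cases an intergenic target had the same 60 bases as another array probe, and in 23 of them both were detected on all 6 arrays. Their mean levels differed by a median of 0.064 and at most 0.42, and their log2 differences between CBZ and DMSO by a median of 0.082.

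The third question was whether targets of 1 interval agreed. Among the 2927 targets detected on all 6 arrays there were 1965 pairs from the same interval and strand name. Their levels differed by a median of 0.84, against 1.03 for pairs from different intervals, and correlated with Pearson's r = 0.60. Their CBZ-to-DMSO differences lay a median of 0.107 apart, against 0.191 for different intervals, with r = 0.61. The same sign was seen in 69.5% of pairs, against 50.3% for different intervals. Pairs share arrays and many share a target, so these correlations are given as descriptions.

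Agreement depended on distance. For 1402 pairs less than 1 kb apart r was 0.67 for level and 0.69 for the CBZ-to-DMSO difference, and 74.3% had the same sign. For 310 pairs 1 to 10 kb apart r was 0.41 and 0.47. For 178 pairs 10 kb or more apart r was 0.14 and -0.03, and 51.7% had the same sign, close to pairs of different intervals. Long intervals thus held targets whose signals did not follow each other.

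Targets on opposite strands of an interval had r = -0.01 for level and 0.25 for the CBZ-to-DMSO difference over 1220 pairs, with a median level difference of 1.30. Of 1066 intervals with targets on both strands, 274 had at least 1 detected target on each, 243 on F only, 236 on R only and 313 on neither. Where R had a detected target F had one in 53.7% of intervals, and otherwise in 43.7%.

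**Figure D4:**
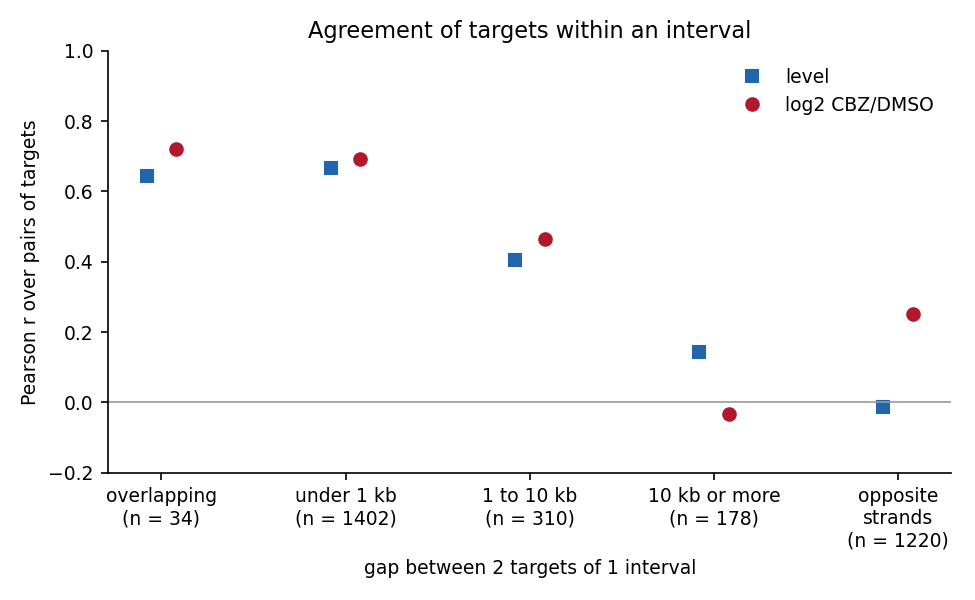
Pearson's r over pairs of targets of 1 interval, for level (squares) and for the log2 CBZ-to-DMSO difference (circles), by the gap between targets on the same strand, and for opposite strands. Both fall from 0.67 and 0.69 under 1 kb to 0.14 and -0.03 at 10 kb or more.

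Detection within an interval was uneven too. Of 3914 intervals with a strand name and at least 2 targets, 58.0% had none detected on all 6 arrays, 38.4% had some and 3.60% had all. A target with a detected partner in its interval was more often detected, in 35.1% of ordered pairs against 15.2% where the partner was not. The largest contrasts between strands were in chr14:22267795-22319045, where the brightest F target exceeded the brightest R target by 9.13, and chr16:43623581-43642715, where F exceeded R by 7.07. In chr9:88575075-88611650 and chr16:32309935-32328234 R was brighter, with F minus R of -6.76 and -6.70. At the other end, chr12:110845020-110850870 had a difference of 0.018, with both strands near a level of -1.55.

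By strand name, the interval with most targets detected on all 6 arrays was chr17:26911397-26917047 on F, with 10 of 10. With 9 of 10 each followed chr16:43623581-43642715, chr19:5771425-5848475 and chr5:74487385-74497428, all on F. Over both strands the most were in chr16:43623581-43642715, with 15 of 20, and chr8:72663625-72673010, with 14 of 18. Next came chr11:95627874-95640824, with 12 of 19, and the chromosome 5 interval, with 12 of 20. A probe of Borcs8 lay inside the chromosome 8 interval and a probe of Zfp652, a zinc-finger gene, inside the chromosome 11 interval, both on the same strand as its F targets. The chromosome 5 interval overlaps Dancr, a named long non-coding RNA. Such densely detected intervals therefore included genes known by name.

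The fourth question was what CBZ changed. The model was limma, fitted over all 22352 kept targets of the array with Benjamini-Hochberg adjustment and a threshold of 0.05. No intergenic target passed it in either direction, while over the whole array 12 targets passed as higher under CBZ, 0.0537%, and 2 as lower, 0.00895%. The smallest adjusted p of an intergenic target was 0.056. At an unadjusted p under 0.05, 167 intergenic targets, 4.57%, were higher and 183, 5.0%, lower, against 5.01% and 4.37% of all targets tested. The groups did not overlap, with CBZ higher, in 171 targets, 4.67%, against 6.25% of all, and with CBZ lower in 211, 5.77%, against 7.0% of all. These shares lie near or below those of the whole array.

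The count of 0 depended on the variance model and scaling. With an intensity trend and robust variances limma called 3 intergenic targets higher and 10 lower, with normexp background correction 3 and 4, and with array-median scaling 4 and 24, which moves the median difference of all targets to -0.11. Without CBZ mouse 1 it called 0 higher and 2 lower. The median log2 difference over the 3658 tested intergenic targets was 0.02, against -0.01 for all and -0.02 for protein-coding targets. Their median residual SD was 0.259 on the log2 scale, against 0.172 for protein-coding targets, so their differences were measured with more spread.

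Named below are the 6 targets per direction with the smallest unadjusted p and no overlap between groups. Their differences kept their sign under every one of the 15 or 16 other settings that could be fitted. For the settings that leave out a mouse, this was fixed by choosing targets without overlap. None passed the adjusted threshold, so they are given as values.

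The leading target with higher signal lies in chr8:10886200-10905925 on F, 102257 bases from the nearest named probe, that of Irs2, which encodes an insulin receptor substrate. It read 0.82, 0.47 and 1.15 in DMSO mice and 1.84, 2.27 and 2.38 in CBZ mice. All CBZ values were above all DMSO values, with a log2 difference of 1.34 ± 0.21 (SE, n = 3 and 3), 2.54-fold, and an adjusted p of 0.075 in limma. It passed the threshold under 5 of 16 other settings, and its adjusted p ranged from 0.0022 to 0.542 over all 16.

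The other targets of the interval had differences of the same sign. All 3 F targets of the interval were higher in CBZ mice, by 0.85 to 1.34, each with an unadjusted p under 0.05. On R a target read -0.38, -0.80 and -0.14 in DMSO mice and 0.34, 0.52 and 0.62 in CBZ mice, a difference of 0.93 ± 0.18 (SE) with an adjusted p of 0.151 in limma. The 3 tested R targets were higher by 0.07 to 0.93. The Irs2 probe had a difference of 0.65 ± 0.27 (SE) with an adjusted p of 0.502, so both strands of the interval and the distant gene had differences of the same sign.

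A target in chr6:133054025-133069850 on R read -1.96, -3.10 and -2.97 in DMSO mice, where it was detected on 1 of 3 arrays, and -1.27, -0.87 and -0.36 in CBZ mice. The measured difference was 1.84 ± 0.32 (SE) with an adjusted p of 0.118 in limma. It was 1.21 with the undetected values raised to the dimmest signal well above background on their arrays, and 0.70 with normexp background correction. The other tested targets of that interval had differences of -0.08 and 0.10. The nearest probe, of Smim10l1 on the opposite strand, had a difference of 0.10 ± 0.13 (SE).

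The other 3 targets with higher signal lay on chromosomes 11, 6 and 7. Targets in chr11:102991688-102992353 and chr6:39269398-39269896, both on R, were detected on no DMSO array and on all 3 CBZ arrays. Counting a DMSO value as no lower than the dimmest signal well above background on its array, they were 1.60-fold and 1.41-fold higher in CBZ mice. Their adjusted p was 0.125 and 0.168 in limma. Neither passed the threshold under any of 15 other settings, where their smallest differences were 0.31 and 0.28. The other tested target of the chromosome 6 interval, detected on all 6 arrays, had a difference of -0.15 ± 0.15 (SE). Within 10 kb of the chromosome 11 target lay a probe of Hexim2, an inhibitor of the elongation factor P-TEFb. That probe, on the opposite strand, had a difference of 0.33 ± 0.16 (SE). A target in chr7:99879368-99889978 on F read -0.58, -0.55 and -0.50 in DMSO mice and -0.11, 0.09 and 0.39 in CBZ mice, a difference of 0.67 ± 0.15 (SE) with an adjusted p of 0.208 in limma. It passed the threshold under none of 16 other settings. The other tested F targets of its interval had differences of 0.46, 0.11 and -0.11.

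**Figure D5:**
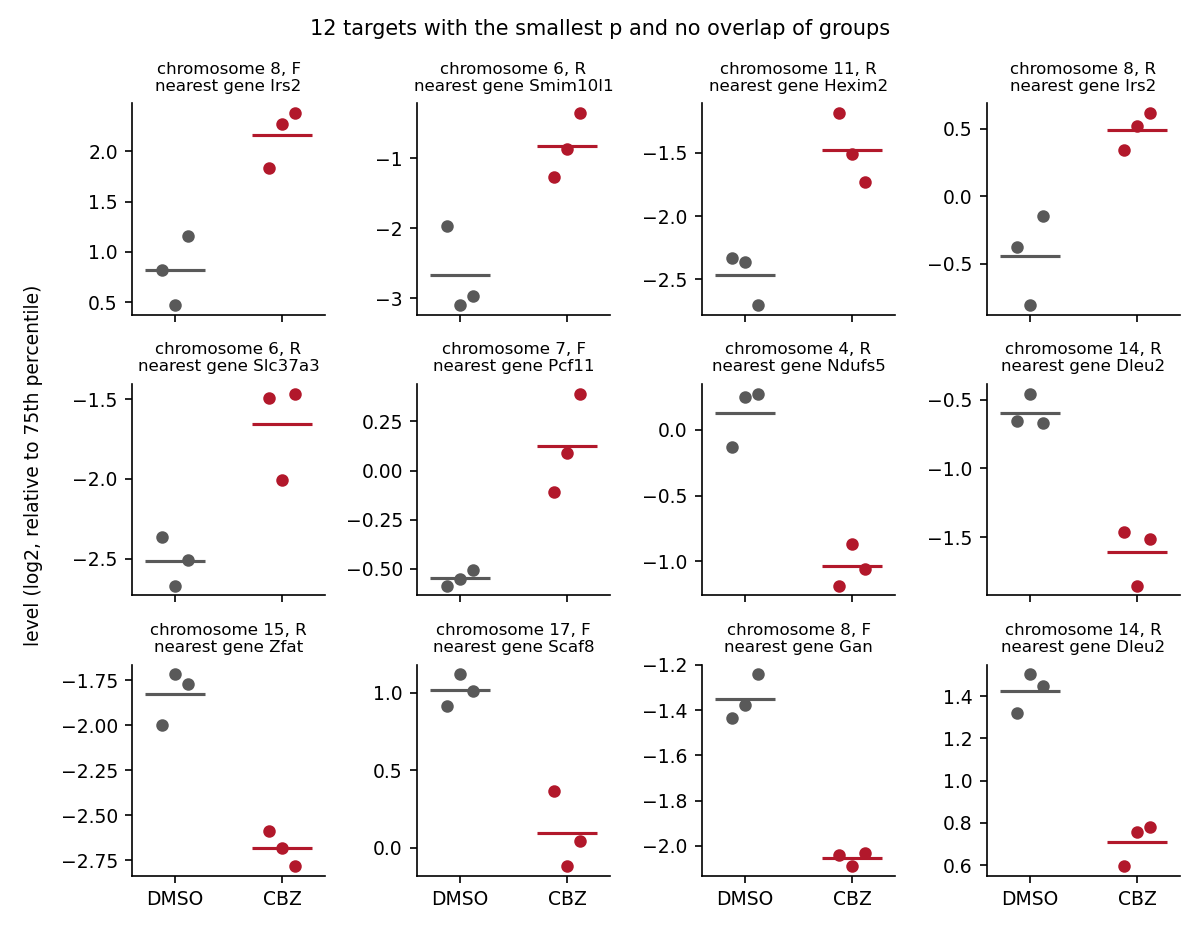
Level of 12 intergenic targets in each mouse (points; lines are group means; log2 relative to the 75th percentile), the first 6 higher and the last 6 lower in CBZ mice. Panels name the chromosome, strand and nearest named gene, and in each of them the groups do not overlap, which the choice of these targets required.

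The smallest p of all intergenic targets was in chr4:123361002-123364781 on R, 28764 bases from the probe of Ndufs5, a subunit of respiratory complex I. It read -0.13, 0.25 and 0.28 in DMSO mice and -1.18, -0.87 and -1.06 in CBZ mice. The CBZ values lay below all DMSO values, with a difference of -1.17 ± 0.16 (SE, n = 3 and 3) and an adjusted p of 0.056 in limma. It passed the threshold under 5 of 16 other settings, with adjusted p from 0.003 to 0.532. The other 2 targets of the interval were not kept, so no neighbour speaks to it, and Ndufs5 had a difference of -0.08 ± 0.13 (SE).

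A pair of intervals on chromosome 14 lies among the array's probes for Dleu2, the long non-coding host RNA of the miR-15a and miR-16-1 genes. In chr14:62280837-62283960 on R a target read -0.66, -0.45 and -0.67 in DMSO mice and -1.46, -1.85 and -1.52 in CBZ mice, a difference of -1.02 ± 0.15 (SE) with an adjusted p of 0.065 in limma. All 3 targets of that interval were lower, by -0.72 to -1.02. In chr14:62294849-62301165 on R a target read 1.32, 1.50 and 1.45 in DMSO mice and 0.60, 0.76 and 0.78 in CBZ mice, a difference of -0.71 ± 0.13 (SE) with an adjusted p of 0.125 in limma. CBZ values lay below DMSO values in all 5 targets of both intervals.

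Over the whole stretch chr14:62254361-62308286 on R, 11 of 11 tested targets were lower in CBZ mice, 7 of them with an unadjusted p under 0.05, with a median of -0.47. The differences were uneven along it. The targets at positions 62266258 and 62266391 had -0.16 and -0.01, and the one at position 62301101, where the array's brighter Dleu2 probe also sits, had -0.28 against -0.24 for that probe. Another Dleu2 probe at position 62237277 had -0.63 ± 0.18 (SE).

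The other 3 targets with lower signal included one in chr17:3198868-3394643 on F, where the interval's 5 tested targets gave 4 lower and 1 higher. It read 0.92, 1.12 and 1.01 in DMSO mice and 0.37, -0.12 and 0.04 in CBZ mice, a difference of -0.92 ± 0.16 (SE) with an adjusted p of 0.102 in limma. Targets in chr15:68172597-68194740 on R and chr8:119732348-119749198 on F were detected on all 3 DMSO arrays and no CBZ array. Counting a CBZ value in the same way, they were 1.17-fold and 1.54-fold lower in CBZ mice. Their adjusted p was 0.077 and 0.114 in limma. Neither passed the threshold under any of 15 other settings, where their smallest differences were -0.24 and -0.15.

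Because single targets were measured with wide spread, overlapping intervals of a strand were joined into loci and their targets read side by side. Of 447 loci with at least 3 tested targets, 174, or 38.9%, had all of them on one side, against 48.0% of 494 protein-coding genes with as many. In 30 loci, 6.71%, at least 3 targets had an unadjusted p under 0.05, 24 with a lower and 6 with a higher median in CBZ mice. Of the protein-coding genes 12, 2.43%, did, 5 lower and 7 higher. Loci held more tested targets, a median of 4 against 3, and with exactly 3 the shares were 2.84% of 211 loci and 1.49% of 404 genes. These 30 were picked after the values were seen, and targets of a locus share RNA, so they are described and not tested. The sign of each locus median held in all 16 other settings, which use the same mice and in part follows from choosing loci by p. In chr18:35967933-35986564 on F the median shrank from -0.37 to -0.02 with detection required on all 6 arrays.

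One of the lower loci was chr16:23989160-24001037 on F, 27014 bases from the probe of Bcl6, a transcriptional repressor, on the opposite strand. All 10 of its 10 targets were lower, 7 with an unadjusted p under 0.05, and the median difference was -1.04. The median over its targets was -0.00011, -0.90 and 0.28 in DMSO mice and -0.41, -1.71 and -2.01 in CBZ mice, so the groups overlapped at DMSO 2 and CBZ 1. All 10 were detected on each DMSO array, but 9, 6 and 5 on CBZ 1, 2 and 3, so some CBZ values are not well above background. With undetected values raised to the dimmest signal well above background the median difference was -1.03. Without CBZ mouse 3 the median difference was -0.66, and with the slide row as a term it was -0.12. The Bcl6 probe itself had -1.37 ± 0.65 (SE) with an adjusted p of 0.584 in limma.

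Another lower locus was chr1:138528250-138538250 on F, 4493 bases from the probe of Zfp281, a zinc-finger transcription factor, on the same strand. All 5 of its tested targets were lower, with a median of -1.22, and its median level was -0.91, -0.72 and -0.97 in DMSO mice and -1.13, -1.70 and -3.00 in CBZ mice. On CBZ 3 only 1 of the 5 was detected, so that value is not well above background. With undetected values raised to the dimmest signal well above background the median difference was -0.93, without CBZ 3 it was -0.72, and with normexp background correction -0.46. The Zfp281 probe had -0.32 ± 0.16 (SE). A further 7 of 7 tested targets were lower in chr14:73729977-73751877 on R, with a median of -0.70, or -0.39 with normexp, while the probe of Itm2b, 13753 bases away, had -0.11 ± 0.14 (SE).

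Among loci with a higher median, chr2:67836003-67836461 on F had 3 of 3 targets higher, with a median of 0.92. Its middle target read 0.92, 1.25 and 1.44 in DMSO mice and 2.65, 2.34 and 1.37 in CBZ mice, so CBZ 3 lay within the DMSO range. With the slide row as a term the median difference was 1.45. In chr9:106170918-106177894 on F 5 of 5 targets were higher, with a median of 0.51, which was 0.27 without CBZ mouse 1 and 1.13 with the slide row as a term. The nearest probe there, 41127 bases away on the opposite strand, was that of Alas1, the rate-limiting enzyme of heme synthesis, with a difference of 1.00 ± 0.21 (SE) and an adjusted p of 0.173 in limma. In chr7:99878349-99889978 on R all 6 tested targets were higher, by 0.45 to 0.74, each with an unadjusted p under 0.05.

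Intergenic targets next to named long non-coding RNAs were read from a list of 50 such genes, 38 of which had probes on the array. In the counts that follow each gene stands by its brightest probe alone. Of the 38, 25 were detected on all 6 arrays and 9 on none. None of the 27 tested passed the adjusted threshold in limma, 13 being higher and 14 lower in CBZ mice, and 5 had an unadjusted p under 0.05, against 5.01% higher and 4.37% lower of all targets tested. These were the probes of Neat1 and Tug1, with positive differences, and of Gas5, Mir17hg and Dancr, with negative ones. Dimmer probes were not counted. The other Tug1 probes had 0.06 and 0.11, the other Gas5 probes -0.30 and -0.15, and a dimmer Dleu2 probe -0.63 ± 0.18 (SE). On the same strand and within 10 kb of 15 of these genes lay 69 intergenic targets detected on at least 1 array. Of the 52 tested, 15 were higher and 37 lower, 10 of the lower and none of the higher ones with an unadjusted p under 0.05, beside the same shares of all targets. These 10 lay at 4 genes, 4 at Dancr, 3 at Dleu2, 2 at Mir17hg and 1 at Firre, so they are not independent.

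Dancr, a host RNA of small nucleolar RNAs, had the most tested targets. All 9 tested targets of chr5:74487385-74497428 on F were lower in CBZ mice, by -0.17 to -0.60, and 4 had an unadjusted p under 0.05. The Dancr probe read 1.32, 1.48 and 1.54 in DMSO mice and 0.97, 1.06 and 0.84 in CBZ mice, with no overlap, a difference of -0.49 ± 0.13 (SE) and an adjusted p of 0.275 in limma. At Mir17hg, the host RNA of a microRNA cluster, the 2 targets closest to its probe, in chr14:115443612-115445950 on F, had -0.96 ± 0.20 and -0.58 ± 0.19 (SE), beside -0.64 ± 0.22 for the probe. The 4 tested targets 3729 bases or more from it lay between -0.23 and 0.26.

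Values near other listed genes were mixed. Near Neat1 3 targets had differences of 0.03 to 0.10 with SEs of 0.41 to 0.46, while the Neat1 probe had 0.96 ± 0.29 (SE) with an adjusted p of 0.337 in limma. Near Norad, a cytoplasmic RNA that binds Pumilio proteins, 3 targets with levels of 3.37 to 4.39 had differences of -0.13 to -0.15, beside -0.10 for the nearest of the gene's probes. Near Tug1 6 tested targets lay between -0.22 and 0.26, beside 0.06 to 0.54 for its probes.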

How the data were processed

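RNA of 6 livers was measured on 1 array each. The software was Agilent Feature Extraction 10.7.3.1 with protocol GE1_107_Sep09 and a design placed on mm9, per the file headers. It subtracted background and removed spatial trends, per those headers, before the authors deposited each spot's intensity. The deposited value table holds a ratio of each intensity to its array's median, tested on the files.

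From these, outlier spots were dropped, spots of a target averaged, and log2 intensity minus the array's 75th percentile taken. Targets well above background on all 3 arrays of a group, 22352 of 55681, were fitted with limma 3.58.1 in R 4.3.3, without covariates, and adjusted by Benjamini-Hochberg. The script was tested on simulated data. Groups came from the labels. Named targets are those past the threshold (none), the 6 per direction with the smallest p without overlap, the 8 brightest intervals, the 4 with most detected targets over both strands and the 4 with the largest and smallest strand differences. The members, lists and rules were chosen with earlier results of these data known. Gene names came from the files and RefSeq tables. Other background corrections, scalings, filters and variance models, a slide-row term, a replicate block and leaving out each mouse were tried. Raising undetected values to the dimmest signal well above background, the ranking of intervals by strand name and the counts over protein-coding genes were added after seeing the data. Of per-sample columns of other samples there were none.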

Additional observations from a re-analysis of the deposited data

How the results depend on the processing

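Intergenic targets called higher and lower numbered 0 and 0. They numbered 3 and 4 with normexp background correction, 4 and 24 with array-median scaling and with the authors' deposited ratios, 1 and 2 with detection required on all 6 arrays, 3 and 10 with an intensity trend and robust variances, 1 and 3 at an adjusted p under 0.10 and 167 and 183 at an unadjusted p under 0.05. Leaving out 1 mouse gave 0 higher throughout and 0 to 2 lower, 2 without CBZ mouse 1. Quantile normalisation, no filter, a percentile over detected targets and a slide-row term gave 0 and 0.

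Mice with the same number did not deviate together, with correlations of -0.24, 0.016 and 0.18, so the numbers were not taken to pair them. With the replicate number as a block limma called 0 and 0, and the median difference stayed 0.02. That median ranged from -0.08 to 0.12 over all settings, within the 0.147 SD between arrays.

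Detection on all 3 arrays of 20.6% and 20.3% (F) and 20.5% and 20.1% (R), in DMSO and CBZ, became 56.8%, 56.5%, 57.1% and 56.9% with the positive-and-significant flag. With at least 2 of 3 arrays it was 25.2%, 25.4%, 25.3% and 25.4%, and with at least 1 of 3 arrays 31.4%, 32.2%, 31.7% and 32.5%. Leaving out 1 mouse of the group gave 21.4% to 23.1% and 21.0% to 22.9% (F), and 21.4% to 23.2% and 20.7% to 22.5% (R).

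The level gap to protein-coding targets was -2.24, with normexp -1.52 and without a filter -1.64. The level difference within an interval was 0.84, with normexp 0.54 and without a filter 1.05. The correlation of CBZ-to-DMSO differences fell from 0.61 to 0.13 without a filter. Leaving out 1 mouse gave gaps of -2.27 to -2.20, level differences of 0.81 to 0.84 and correlations of 0.55, without DMSO mouse 1, to 0.61. The cause of these shifts was not tested. Dim signal limits what can be read, since 64.3% of intergenic targets were detected on no array.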
